A study of Caenorhabditis elegans with 6 samples.

Results

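The germline, oocyte and eggshell genes described here are 33 genes of Caenorhabditis elegans chosen by name. They fall into 5 genes of P granules, 17 genes of germline and oocyte RNA-binding proteins, the receptor gene glp-1, and 10 genes of the eggshell. All 33 were found among the 46904 gene IDs listed for each library. Polyadenylated RNA of whole hermaphrodites of the laboratory wild type, N2, was sequenced in 6 libraries, 3 per group. The caffeine group spent 72 h at 25 °C on agar with 10 mM caffeine, and the control group spent the same time at the same temperature on agar with 0 mM. Both groups were fed OP50 bacteria, began as synchronized larvae of the last larval stage, and were harvested on day 3 of adulthood. Each library came from a pool of about 300 animals that the labels call a biological replicate. Libraries held between 40417780 and 40746556 counts, and the lowest value of any of the 33 genes in any library was 4573 counts.

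The hermaphrodite gonad is a tube in which germ cells divide at the far end, enter meiosis, and grow into oocytes near the uterus. P granules are condensates of RNA and protein that germ cells carry beside the nucleus. Maturing oocytes are thought to be silent in transcription, and RNA-binding proteins store, repress and release the messages made earlier. The eggshell is built around the time of fertilization, largely from proteins and proteoglycans that the oocyte has made beforehand. Its outermost, vitelline layer is already on the oocyte, and chitin is added after fertilization. A whole hermaphrodite also carries embryos that still hold maternal RNA. In such bulk RNA, fewer cells of a type and less RNA per cell cannot be told apart.

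The 33 genes were among the more abundant genes of the animals. Levels are given as CPM, counts scaled to a common library total. Per kilobase of exon, and averaged over 6 libraries, their levels ran from 76.99 CPM per kb for glh-4 to 2485 CPM per kb for cpg-2. Their median stood at percentile 97.8 of the 14200 genes tested, and 26 of the 33 lay in the top 5%. The proteoglycan genes cpg-2 and cpg-1 ranked at places 6 and 14 of all tested genes, and perm-4 and perm-2 of the outer eggshell at places 16 and 22. The most abundant RNA-binding gene was pos-1 at 1198 CPM per kb, followed by spn-4 at 974 CPM per kb. P granule genes were lower, with pgl-1 highest at 268 CPM per kb and glh-4 lowest. The receptor gene glp-1 stood at 88.2 CPM per kb. Within the eggshell list the least abundant gene was egg-3 at 177 CPM per kb, and within the RNA-binding list pie-1 at 123 CPM per kb.

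**Figure D1:**
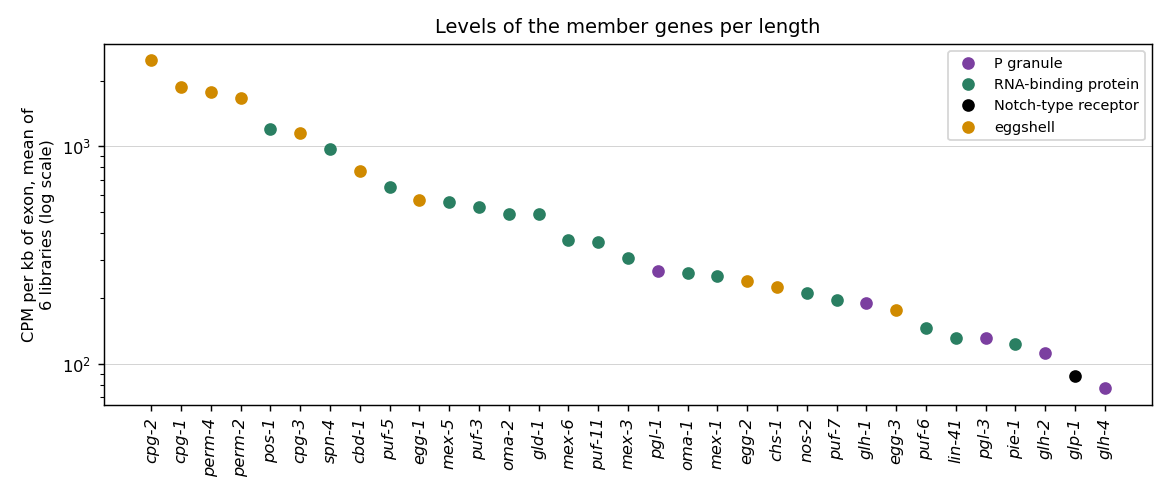
Levels of the 33 genes on a logarithmic axis, in CPM per kb of exon, as the mean of 6 libraries, ordered from the highest and coloured by role. Eggshell genes take the first 4 places, from cpg-2 at 2485 to perm-2 at 1676, and glh-4 the last at 76.99.

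With caffeine, 2 of the 33 genes changed past the threshold, an adjusted p under 0.05. The eggshell gene cpg-3 rose, and the P granule gene pgl-1 fell. Over all 14200 tested genes, 24.3% were called in the same fit, 13.8% higher and 10.5% lower. In this fit the share of members called was below that of the transcriptome as a whole, but not without caffeine library 1. There, 18 of the 33 were lower and 1 higher, beside 17.3% lower and 15.6% higher among all genes then tested. With all 6 libraries, the log2 fold changes of the 33 genes were small, from -0.27 for puf-7 to 0.32 for cpg-3. The 95% interval of the difference lay within a 2-fold change in either direction for 33 of 33 genes, against 69.8% of all tested genes. The widest reach was a log2 value of -0.65 for cpg-1 on the low side and 0.48 for cpg-3 on the high side.

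The direction was mostly downward without reaching the threshold. Of the 33 log2 fold changes, 27 were below 0, where 50.1% of all tested genes were, and 24 and 23 were below 0 under upper-quartile scaling and under library totals. Their median was -0.18, and that of all tested genes was -0.00068. The median of the 33 genes was -0.085 without caffeine library 2, -0.11 without control library 2 and -0.27 without caffeine library 1. The 3 caffeine values lay wholly below the 3 control values in 5 genes and wholly above them in 3. Among all tested genes the groups did not overlap in 44.3%, with caffeine below in 20.9% and above in 23.3%. At an unadjusted p under 0.05 (edgeR quasi-likelihood test), 7 of the 33 genes were counted, beside 39.0% of all tested genes.

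**Figure D2:**
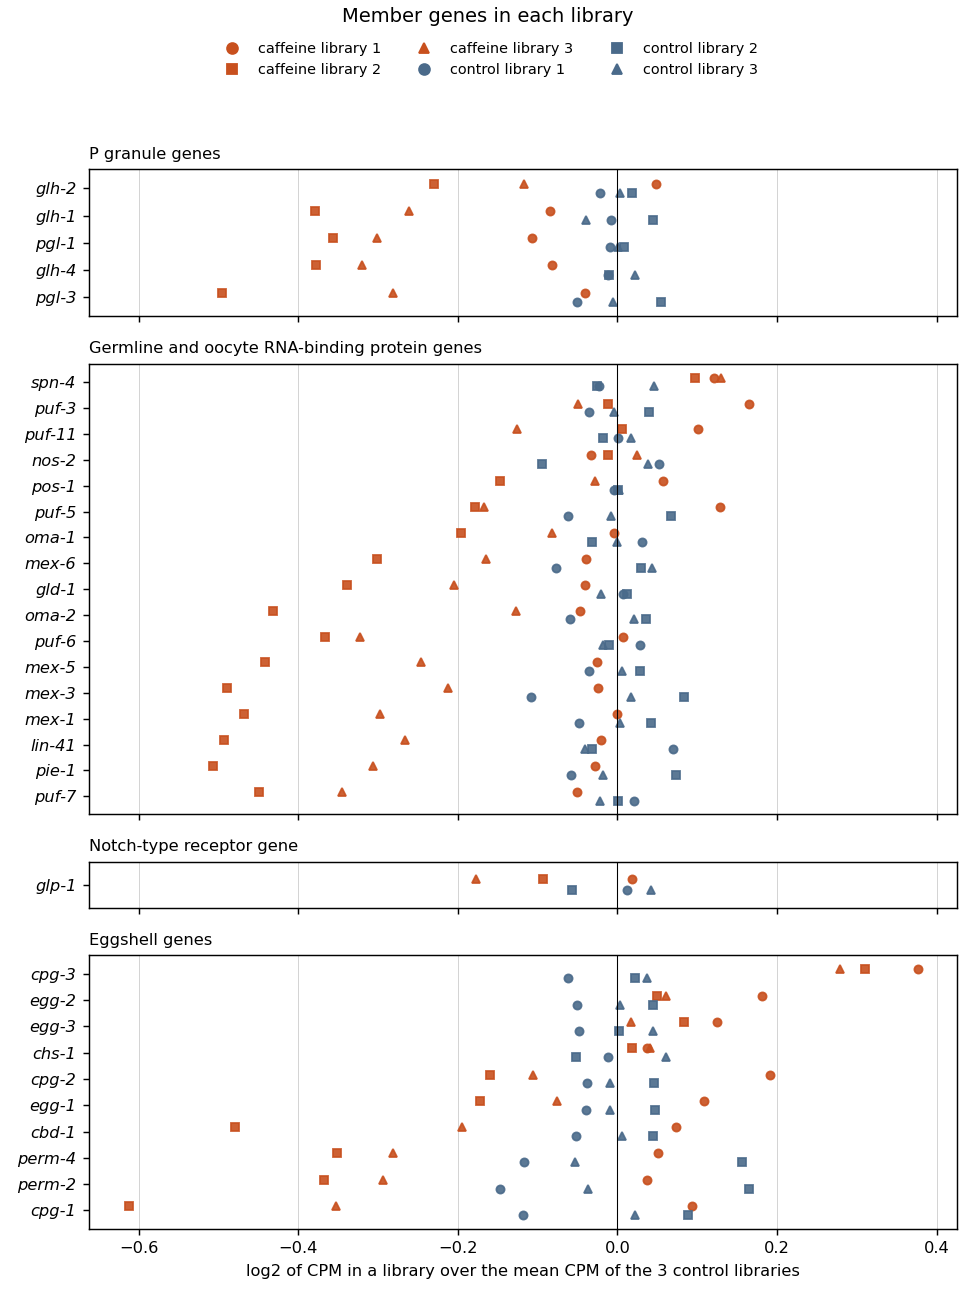
Each of the 33 genes in each library, as log2 of its CPM over the mean CPM of the 3 control libraries, with caffeine libraries in orange above and control libraries in blue below. Control values stay close to 0, while caffeine library 1 (circles) lies near the controls and caffeine libraries 2 and 3 lie to the left for most genes. cpg-3 is the clearest exception, with its 3 caffeine values to the right of its controls.

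The P granule list had 5 of 5 log2 fold changes below 0, with a median of -0.25. Of the 5, 1 was called lower, pgl-1, beside 10.5% of all tested genes. At an unadjusted p under 0.05, edgeR's quasi-likelihood test counted 4, beside 39.0% of all tested genes. In 3 of the 5 the caffeine values lay wholly below the controls, beside 20.9% of all tested genes. DESeq2 also called glh-1 and glh-4, and limma-voom also called glh-4. pgl-1 (chromosome IV, 6974441 to 6977318, minus strand, assembly WBcel235) encodes a scaffold protein of P granules. It had 673, 566 and 588 CPM in caffeine libraries 1, 2 and 3, against 720, 729 and 725 CPM in control libraries 1, 2 and 3. The groups did not overlap, and the control values lay close together. The mean was 609 ± 56.4 CPM with caffeine and 725 ± 4.24 CPM in controls (SD, n = 3 each). The log2 fold change was -0.25 (SE 0.077), so that the level fell by 15.9%, with a Benjamini-Hochberg adjusted p of 0.0482 by edgeR's quasi-likelihood test. The call was lost in 5 of 6 fits that left out a library, where the adjusted p (edgeR quasi-likelihood test) reached 0.146. It was kept without caffeine library 1, at a log2 fold change of -0.33. With replicate number as a model term (the replicate block), it was lost, at an adjusted p of 0.0928 by the same test.

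The other four genes of the list did not pass. pgl-3 (chromosome V, 4755979 to 4758587, plus strand), which encodes a related scaffold protein, had 318, 232 and 269 CPM with caffeine, against 316, 340 and 326 CPM in controls. Caffeine library 1 lay inside the control range and the other two libraries lay below it, with a log2 fold change of -0.26 (SE 0.11). glh-4 (chromosome I, 3727027 to 3731179, plus strand), which encodes a helicase related to Vasa, had 297, 242 and 251 CPM with caffeine, against 311, 311 and 319 CPM in controls. Its groups did not overlap, and its Benjamini-Hochberg adjusted p of 0.0513 by edgeR's quasi-likelihood test lay just beyond the threshold. Its expected counts, deposited to 2 decimals, were not whole in 6 of 6 libraries, in the nearest case by 0.01 counts, so part of its reads may be shared with other IDs.

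The Vasa-related helicase genes glh-1 and glh-2, both on chromosome I, had expected counts that were not whole in any library, as happens when reads are divided among similar genes. glh-1 (6854478 to 6857536, plus strand) had 538, 439 and 476 CPM with caffeine, against 567, 588 and 555 CPM in controls, a log2 fold change of -0.24 with non-overlapping groups. glh-2 (6513928 to 6517507, plus strand) had 385, 317 and 343 CPM with caffeine, against 366, 377 and 373 CPM in controls, a log2 fold change of -0.09 with overlapping groups. Their summed counts were whole in 6 of 6 libraries, to within 0.015 counts, so the pair can be read as a sum that does not depend on the division. The sum was 922, 756 and 819 CPM with caffeine, against 934, 965 and 928 CPM in controls, and its groups did not overlap.

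Of the 17 genes in the RNA-binding list, 0 were called by edgeR's quasi-likelihood test, beside 24.3% of all tested genes. At an unadjusted p under 0.05 the same test counted 2, puf-7 and pie-1, beside 39.0% of all tested genes. DESeq2 called 1, puf-7, and limma-voom called 0. Of the 17 log2 fold changes, 15 were below 0, with 13 under upper-quartile scaling and 12 under library totals. Their median was -0.19, and without caffeine library 2 it was -0.0996. The lowest value was that of puf-7, and spn-4 and puf-3 stood above 0.

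The CCCH zinc finger genes of the list act in oocyte maturation and in sorting fates among early embryonic cells. oma-2 (chromosome V, 8029439 to 8031214, plus strand), needed with oma-1 for oocytes to mature, had 780, 598 and 738 CPM with caffeine, against 774, 826 and 818 CPM in controls. oma-1 (chromosome IV, 8888976 to 8890999, plus strand) had 486, 425 and 460 CPM with caffeine, against 498, 477 and 487 CPM in controls. In both genes caffeine library 2 was lowest, and the log2 fold changes were -0.19 for oma-2 and -0.09 for oma-1. pie-1 (chromosome III, 12426893 to 12429195, plus strand), which keeps embryonic germline precursors from transcribing somatic genes, had 147, 106 and 121 CPM with caffeine, against 144, 158 and 148 CPM in controls. Caffeine library 1 lay within the control range, and the log2 fold change was -0.27 (SE 0.11) with a Benjamini-Hochberg adjusted p of 0.110 by edgeR's quasi-likelihood test. mex-1, mex-5 and mex-6, which help to set the anterior to posterior difference of the embryo, had log2 fold changes of -0.24, -0.23 and -0.16. pos-1 (chromosome V, 8414086 to 8415254, plus strand), which acts on maternal messages in the early embryo, had 1411, 1224 and 1329 CPM with caffeine, against 1352, 1357 and 1358 CPM in controls. Its control values stood between those of the caffeine libraries, with a log2 fold change of -0.04.

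The Pumilio family genes of the list repress messages in growing oocytes. In the main fit 0 of the 5 were called, beside 24.3% of all tested genes, and 5 genes are too few to set against that share. puf-7 (chromosome IV, 5486713 to 5490322, plus strand) had 383, 291 and 312 CPM with caffeine, against 402, 397 and 391 CPM in controls. Its groups did not overlap, and its log2 fold change was -0.27 (SE 0.098) with a Benjamini-Hochberg adjusted p of 0.0779 by edgeR's quasi-likelihood test. puf-6 (chromosome II, 13039792 to 13043445, minus strand) had 296, 228 and 235.2 CPM with caffeine, against 300, 292 and 290 CPM in controls. In puf-6, caffeine library 1 lay within the control range. puf-6 and puf-7 had values that were not whole in 6 of 6 libraries, so their separate levels are uncertain, but their sum was 679, 519 and 548 CPM with caffeine, against 702, 689 and 681 CPM in controls. That sum, with groups that did not overlap, was still not whole, so further IDs share reads with the pair.

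The other Pumilio genes lay nearer to 0 in log2 fold change. puf-3 (chromosome IV, 13510307 to 13512162, minus strand) had 1015, 898 and 876 CPM with caffeine, against 883, 931 and 903 CPM in controls. puf-11 (chromosome IV, 6421585 to 6423497, plus strand) had 677, 633 and 578 CPM with caffeine, against 632, 623 and 639 CPM in controls. The groups overlapped in both genes, and the log2 fold changes were 0.04 (95% interval -0.14 to 0.21) for puf-3 and -0.0035 (-0.17 to 0.16) for puf-11. puf-5 stood at -0.07 with overlapping groups.

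The remaining RNA-binding genes carry other domains. lin-41, which encodes a TRIM-NHL protein that holds oocytes back from early maturation, had a log2 fold change of -0.25 (SE 0.11) with a Benjamini-Hochberg adjusted p of 0.144 by edgeR's quasi-likelihood test. gld-1, a translational repressor needed for oocyte development, had 1123, 914 and 1002 CPM with caffeine, against 1161, 1165 and 1139 CPM in controls. Its groups did not overlap, and its log2 fold change was -0.19. mex-3, a KH domain gene of embryonic patterning, stood at -0.23. nos-2, a Nanos gene of the primordial germ cells, had 258, 261 and 268 CPM with caffeine, against 273, 247 and 271 CPM in controls. Its groups overlapped, with a log2 fold change of -0.0066 and a 95% interval of -0.14 to 0.13. Its values were not whole in 6 of 6 libraries. It overlaps him-14 by 154 bp of exon on the opposite strand, and the use of strand in counting is not given in the sources used here.

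spn-4 (chromosome V, 6783187 to 6784903, minus strand), which encodes an RNA-binding protein of oocytes and early embryos, was the highest of the list in log2 fold change. It had 1548, 1523 and 1558 CPM with caffeine, against 1401, 1399 and 1470 CPM in controls. The caffeine values lay wholly above the controls, yet the log2 fold change of 0.12 (95% interval -0.04 to 0.27) had a Benjamini-Hochberg adjusted p of 0.240 by edgeR's quasi-likelihood test. Unlike most members, spn-4 was not highest in caffeine library 1.

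glp-1 (chromosome III, 9092241 to 9099698, plus strand) encodes the Notch-type receptor by which the somatic gonad keeps germline stem cells dividing. It had 397, 368 and 347 CPM with caffeine, against 396, 377 and 404 CPM in controls. The groups overlapped, and the log2 fold change was -0.08 with a 95% interval of -0.24 to 0.07.

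The eggshell list split in direction, with 6 of 10 log2 fold changes below 0, 5 under upper-quartile scaling and library totals. The median was -0.03, and its sign was not stable, with 0.0088 under library totals, 0.030 without caffeine library 2, 0.00033 without caffeine library 3 and -0.13 without caffeine library 1. edgeR's quasi-likelihood test, DESeq2 and limma-voom each called 1 gene higher, cpg-3, and 0 lower. The first test called 13.8% of all tested genes higher and 10.5% lower. At an unadjusted p under 0.05 that test counted cpg-3 alone in this list, beside 39.0% of all tested genes. cpg-3 (chromosome I, 7244937 to 7246295, plus strand) encodes a chondroitin proteoglycan. It had 1366, 1304 and 1276 CPM with caffeine, against 1008, 1069 and 1079 CPM in controls. The lowest caffeine value was above the highest control value, and the means were 1315 ± 45.9 CPM with caffeine and 1052 ± 38.4 CPM in controls (SD, n = 3 each). The log2 fold change was 0.32 (SE 0.070; 95% interval 0.16 to 0.48), or 25.0% more, with a Benjamini-Hochberg adjusted p of 0.0129 by edgeR's quasi-likelihood test. It stayed between 0.29 and 0.34 when a library was left out. Its call was lost without control library 1, at an adjusted p of 0.0626 by edgeR's test, and without control library 2, at 0.0548. It was also lost with the replicate block, at an adjusted p of 0.0586 by the same test. Values of cpg-3 were not whole in 6 of 6 libraries, by at most 0.12 counts, so part of its reads may be shared.

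The other proteoglycan genes of the list did not move with cpg-3. cpg-1 (chromosome III, 4489359 to 4491392, plus strand), a chitin-binding proteoglycan of the eggshell, had 4106, 2518 and 3014 CPM with caffeine, against 3548, 4092 and 3909 CPM in controls. Caffeine library 1 was the highest of the 6 and caffeine libraries 2 and 3 were the lowest, so the log2 fold change of -0.26 came with an SE of 0.17. cpg-2 (chromosome III, 7102092 to 7103990, minus strand), which acts alongside cpg-1, had 4917, 3856 and 4003 CPM with caffeine, against 4193, 4447 and 4279 CPM in controls. Here too caffeine library 1 was the highest of the 6, and the log2 fold change was -0.02 with a 95% interval of -0.28 to 0.24.

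A ratio within a library does not depend on how libraries are scaled. The count of cpg-3 over that of cpg-1 was 0.333, 0.518 and 0.423 with caffeine, against 0.284, 0.261 and 0.276 in controls. Over cpg-2 it was 0.278, 0.338 and 0.319 with caffeine, against 0.240, 0.240 and 0.252 in controls. Both ratios were higher in each caffeine library than in each control library. They were chosen after the values were seen and carry no test.

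**Figure D3:**
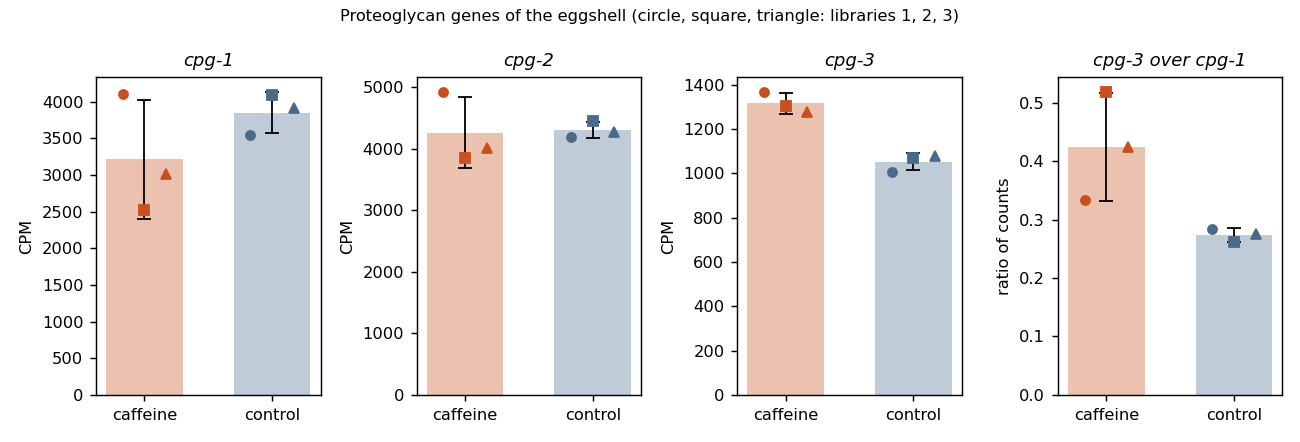
CPM of cpg-1, cpg-2 and cpg-3 and the ratio of cpg-3 to cpg-1 counts, by group, with points for libraries, bars for means and lines for the SD (n = 3 each). Caffeine values of cpg-3 lie between 1276 and 1366 CPM, above the controls at 1008 to 1079 CPM, while those of cpg-1 and cpg-2 spread around their controls.

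Genes for the outer, vitelline layer of the eggshell had the same order of caffeine libraries as cpg-1, an order common among the members. Caffeine library 1 was the highest caffeine library in 30 of the 33 genes, and caffeine library 2 the lowest in 27. cbd-1 (chromosome IV, 11372991 to 11377627, plus strand), which encodes a chitin-binding protein of that layer, had 3628, 2473 and 3012 CPM with caffeine, against 3326, 3556 and 3460 CPM in controls. Caffeine library 1 was the highest of the 6 and the other two caffeine libraries the lowest, with a log2 fold change of -0.18. perm-4 (chromosome IV, 1121494 to 1125107, minus strand), which works with cbd-1, had 2173, 1644 and 1725 CPM with caffeine, against 1933, 2337 and 2021 CPM in controls. perm-2, its neighbour at 1682 bp on the plus strand, had 1352, 1021 and 1075 CPM with caffeine, against 1191, 1478 and 1285 CPM in controls. In perm-4 and perm-2, caffeine library 1 lay within the control range and caffeine libraries 2 and 3 below it, and log2 fold changes were -0.18 and -0.20. The ratio of perm-4 to perm-2 counts was nearly constant, between 1.605 and 1.609 with caffeine and between 1.573 and 1.624 in controls.

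The genes that act at the oocyte surface and in making chitin stayed near 0 in log2 fold change. egg-1 and egg-2 encode membrane proteins of the oocyte needed for fertilization. egg-1 (chromosome III, 5728180 to 5730159, plus strand) had 1118, 920 and 984 CPM with caffeine, against 1009, 1072 and 1030 CPM in controls, with overlapping groups. egg-2 (chromosome III, 7058527 to 7060583, minus strand) had 464, 424 and 427 CPM with caffeine, against 395, 422 and 410 CPM in controls, with caffeine values wholly above the controls. The log2 fold changes were -0.04 for egg-1 and 0.10 for egg-2, and neither passed the test. egg-3 (chromosome II, 10882408 to 10884441, minus strand), which helps to link fertilization to eggshell building at the cell cortex, had 338, 328 and 313 CPM with caffeine, against 299.7, 310 and 319 CPM in controls. chs-1, the chitin synthase of the eggshell, had 987, 973 and 988 CPM with caffeine, against 954, 927 and 1003 CPM in controls. Their log2 fold changes were 0.08 (95% interval -0.05 to 0.21) for egg-3 and 0.03 (95% interval -0.12 to 0.18) for chs-1.

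Among pairs of related genes, some ratios did not overlap between the groups although neither gene was called. egg-2 over egg-1 was 0.415, 0.460 and 0.434 with caffeine, against 0.392, 0.394 and 0.398 in controls. puf-7 over puf-6 was 1.296, 1.274 and 1.327 with caffeine, against 1.342, 1.358 and 1.345 in controls, and it shares the uncertainty of those values. So does glh-2 over glh-1, at 0.716, 0.723 and 0.721 with caffeine, against 0.646, 0.640 and 0.672 in controls. cpg-1 over cpg-2 was 0.835, 0.653 and 0.753 with caffeine, against 0.846, 0.920 and 0.913 in controls. In these 4 pairs the groups did not overlap, but how often this holds over all gene pairs was not computed. For single genes the groups did not overlap in 44.3% of all tested genes. The ratios of oma-2 to oma-1, puf-11 to puf-3, mex-6 to mex-5 and pgl-3 to pgl-1 overlapped between the groups. These pairs were picked with the values known and were not tested.

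**Figure D4:**
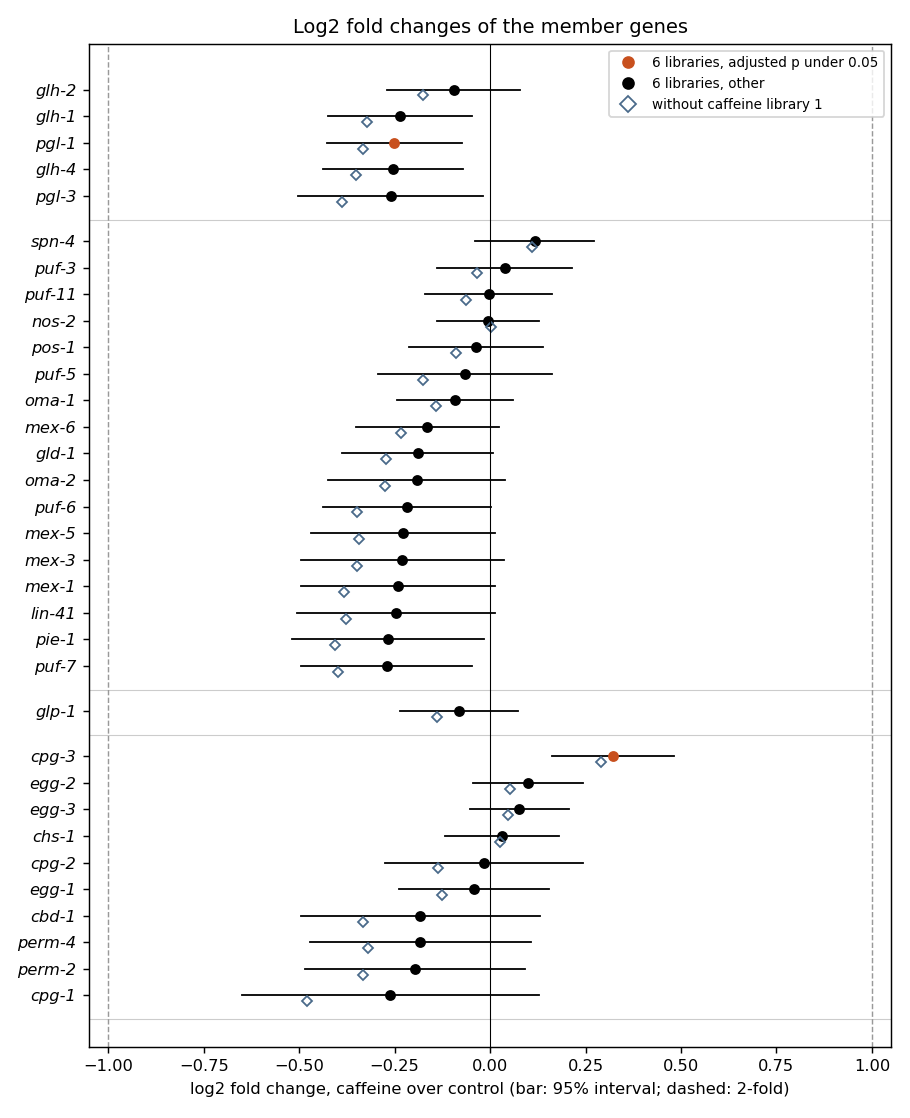
Log2 fold change of caffeine over control for the 33 genes, with 95% intervals from 6 libraries, and open diamonds for the fit without caffeine library 1. The intervals stay inside the dashed 2-fold lines, and most diamonds lie to the left of their points.

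The caffeine libraries differed among themselves in these genes more than the control libraries did. The SD of log2 CPM, as a median over the 33 genes, was 0.15 among caffeine libraries and 0.046 among control libraries. Over all tested genes it was 0.16 among caffeine libraries and 0.11 among control libraries. Caffeine library 1 was the highest of the 3 caffeine libraries in 30 of 33 genes, where this held for 34.0% of all tested genes. Caffeine library 2 was the lowest in 27 of 33, where this held for 33.6%. Against the control mean, the median log2 difference of the 33 genes was 0.02 in caffeine library 1, -0.34 in caffeine library 2 and -0.18 in caffeine library 3. For all tested genes these medians were between -0.0013 and 0.013.

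Without caffeine library 1, many more of the genes were called. Of the 33, 18 were lower and 1 higher by edgeR's quasi-likelihood test, beside 17.3% lower and 15.6% higher among all 14547 genes then tested. The 18 were 5 of 5 P granule genes, 9 of 17 RNA-binding genes, and cbd-1, perm-2, perm-4 and cpg-1 of the eggshell. The lowest log2 fold changes were -0.48 for cpg-1, -0.41 for pie-1 and -0.40 for puf-7. cpg-3 was still the gene called higher, at 0.29. In the other 5 fits that left out a library, 0 of the 33 genes were lower. Calls were also fewer over all genes, with between 698 and 964 lower in those fits, against 1488 with all 6 libraries. Those fits tested between 14490 and 14598 genes. Of 29 sperm markers, 15 were lower without caffeine library 1, against 2 with 6 libraries. Some of these markers passed the filter only with a library where they were high, as 21 were tested without both caffeine library 1 and control library 2. The marker counts therefore do not bear on the members' calls, and the part of sperm RNA in those calls was not tested.

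Shares of all counts were computed without library factors. P granule genes took 0.212%, 0.192% and 0.196% of counts in caffeine libraries, against 0.227%, 0.229% and 0.226% in control libraries, with no overlap. RNA-binding genes took 1.28%, 1.19% and 1.22% with caffeine, against 1.28%, 1.29% and 1.29% in controls, and eggshell genes took 1.96%, 1.65% and 1.71% with caffeine, against 1.78%, 1.93% and 1.85% in controls. In both of these lists caffeine library 1 lay within or above the control range. Exact binomial 95% intervals of these shares reached at most 0.0057 percentage points to either side and cover counting error only, since reads are not independent molecules.

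Sperm markers also differed between libraries of 1 group. The summed level of the 29 tested sperm markers was 55.7, 24.1 and 24.1 CPM in caffeine libraries, against 46.0, 115 and 39.3 CPM in control libraries. Caffeine library 1 and control library 2 had the highest sums in their groups. Of the 32 markers matched, 0 were at 0 in every library. Of the 29 tested, 2 were called lower and 0 higher, beside 10.5% lower and 13.8% higher among all tested genes. Their median log2 fold change was -1.32. Without caffeine library 1, 15 of 29 were lower and 0 higher, beside 17.3% lower and 15.6% higher among all genes then tested. Without both of these libraries 21 of the markers were tested, and 6 were lower and 1 higher. The counts out of 29 and their median thus rest in part on markers that passed the filter through libraries where they were high. With both of these libraries left out, 12 of the 33 germline, oocyte and eggshell genes were lower and cpg-3 higher, beside 11.6% lower and 10.8% higher among all genes tested. The part of sperm RNA in the members' values was not tested beyond this.

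**Figure D5:**
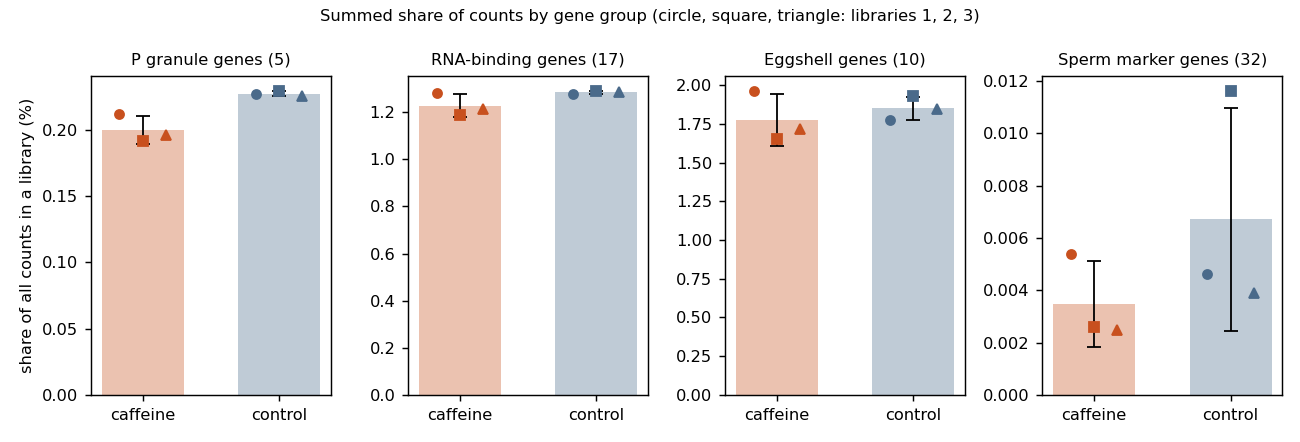
Share of all counts in a library, in percent, for the P granule, RNA-binding and eggshell lists and for sperm markers, with points for libraries, bars for means and lines for the SD (n = 3 each). P granule shares with caffeine, at 0.192% to 0.212%, lie below the controls at 0.226% to 0.229%, and the circle of caffeine library 1 is the highest caffeine value in each panel.

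Other genes of the same processes were counted from lists chosen by name, with earlier results of these data known. Of 18 other genes of P granules and germ granules, 1 was higher and 2 were lower, beside 13.8% higher and 10.5% lower among all tested genes. Their median log2 fold change was -0.22. mut-16, a scaffold of small RNA amplification, had 159, 126 and 138 CPM with caffeine, against 184, 189 and 184 CPM in controls, a log2 fold change of -0.40. znfx-1, a helicase of granules next to P granules, had a log2 fold change of -0.36, and pgl-2, a relative of pgl-1, rose at 0.30. They stayed called in 16, 15 and 11 of 16 alternatives. By edgeR's quasi-likelihood test their adjusted p was 0.0115, 0.0125 and 0.0281.

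Of 18 other germline RNA-binding genes, 8 were lower and 0 higher, beside 10.5% lower and 13.8% higher among all tested genes. Their median log2 fold change was -0.25. Among the called genes, the largest falls were in fog-3 and fog-1, which direct germ cells to become sperm. The other called genes fell less, and not all of them have that role. fog-3 had 0.773, 0.554 and 0.583 CPM with caffeine, against 3.62, 4.46 and 1.87 CPM in controls, a log2 fold change of -2.38 (SE 0.35). fog-1 had 34.95, 29.1 and 32.2 CPM with caffeine, against 52.3, 59.3 and 47.5 CPM in controls, a log2 fold change of -0.73 (SE 0.10). The groups did not overlap in either gene, and both stayed called in 16 of 16 alternatives, as did cpb-3 at -0.28. By edgeR's quasi-likelihood test the adjusted p was 0.00218 for fog-3 and 0.00174 for fog-1.

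Over all tested genes, 13.8% were called higher and 10.5% lower. Of 13 tested genes of eggshell formation and egg activation outside the members, 1 was higher and 2 were lower, with a median of -0.10. perm-1 rose at 0.19, and the proteoglycan genes cpg-8 and cpg-7 fell at -0.30 and -0.43. They stayed called in 11, 14 and 6 of 16 alternatives. Of 21 meiosis and synapsis genes, 2 were higher and 2 lower, near those shares, with a median of -0.00056. Their summed level was nearly even at 2174, 2111 and 2099 CPM with caffeine, against 2146, 2123 and 2142 CPM in controls. zim-1, a zinc finger gene of chromosome pairing, rose at 0.21, and the meiotic kinase gene chk-2 and the cohesin gene rec-8 fell at -0.52 and -0.30. These 3 stayed called in 10, 12 and 11 of 16 alternatives. Without caffeine library 1, the numbers lower in these 4 lists were 9 of the germ granule list, 12 of the RNA-binding list, 6 of the eggshell list and 3 of the meiosis list. Among all genes then tested, 17.3% were lower.

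Markers of other tissues were examined in the same libraries, and their counts stand beside 13.8% higher and 10.5% lower among all tested genes. Of 8 body wall muscle markers, 3 were higher and 0 lower, and their summed level was 1202, 941 and 960 CPM with caffeine, against 774, 873 and 852 CPM in controls. Of 8 neuron markers, 3 were higher and 0 lower, and of 8 epidermis markers, 1 was higher and 0 lower. Intestine markers split, with 2 of 7 higher and 2 lower. Of 8 markers of the gonadal sheath and spermatheca, 1 was higher and 0 lower, with sums of 819, 717 and 753 CPM with caffeine, against 809, 802 and 827 CPM in controls. Of 10 tested markers of early embryonic transcription, 1 was higher and 2 lower, with sums of 23.4, 27.1 and 27.2 CPM with caffeine, against 25.4, 24.6 and 19.7 CPM in controls. In each of these lists 0 matched markers were at 0 in every library, and the part of these tissues in the members' values was not tested.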

How the data were processed

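Each library's deposited file lists, per the file headers, WormBase gene IDs with expected counts, which are estimated reads per gene, scaled by neither depth nor length. Per the submitters' processing notes, STAR 2.7.0e and RSEM 1.3.1 were used with the builds WBcel235 and ce11. The annotation release and strand setting are not given in the sources used here. Symbols came from a table of gene names, which matched 33 of 33 members. Coordinates and exon lengths came from Ensembl release 115 of WBcel235.

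Expected counts were rounded. filterByExpr of edgeR 4.0.16 (minimum count 10, minimum total 15) left 14200 genes, including 33 of 33 members. Caffeine and control were compared in R 4.3.3 with TMM factors (0.960 to 1.07) and the quasi-likelihood test of edgeR on all 6 libraries, with no covariate. Benjamini-Hochberg adjustment covered the 14200 genes, and a gene was called at an adjusted p under 0.05. SE is the size of the log2 fold change over the root of F. CPM carry the TMM factors, and percentage shares do not. The fit was tested on simulated data with changes of 2-fold or more. The members changed by less, so that test does not bear on calls of their size. No sequencing batch is labelled.

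Members and lists were chosen with earlier results of these data known. Library values are given for members that were called and, in each role group, for those with extreme log2 fold changes, p or levels, and for those with values that were not whole. Others were added after their values were seen. From each other list, at most 3 called genes are named. Alternatives were other scalings, filters and tools (DESeq2 1.42.0, limma 3.58.1), unrounded counts, a replicate block, and leaving out each library. A further alternative left out both caffeine library 1 and control library 2 and was chosen after seeing the data. Counts out of 16 alternatives include it.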

Additional observations from a re-analysis of the deposited data

How the results depend on the processing

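The direction of pgl-1 and cpg-3 was kept in 16 of 16 alternatives, and their calls in 10 and 13. Among all genes, 1962 were called higher and 1488 lower. Leaving out 1 library gave between 1209 and 2264 higher (fewest without control library 2) and between 698 and 2512 lower (most without caffeine library 1). Among members, the 1 call lower became 2 under median-of-ratios scaling, upper-quartile scaling, the filter at a mean of 50 counts and limma-voom, with glh-4 added. It became 4 under library totals and DESeq2, with glh-1, glh-4 and puf-7. It became 12 without both caffeine library 1 and control library 2, an alternative chosen after seeing the data. Leaving out 1 library gave between 0 and 18 lower, with 18 without caffeine library 1, and between 0 and 1 higher, with 0 without control library 1 or 2. The cause was not tested.

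Members near 0 changed sign without being called. Under upper-quartile scaling and library totals, the log2 fold changes were 0.023 and 0.038 for puf-11, 0.021 and 0.037 for nos-2, and 0.0087 and 0.021 for cpg-2, and pos-1 stood at 0.0030 under library totals. With the filter at 50 counts, puf-11 was at 0.0063 and nos-2 at 0.0033. Without both libraries named above, puf-3 was at -0.0082. Leaving out 1 library gave ranges of -0.034 to 0.079 for puf-3, -0.062 to 0.054 for puf-11, -0.090 to 0.017 for pos-1, -0.055 to 0.018 for nos-2, -0.13 to 0.020 for egg-1 and -0.14 to 0.052 for cpg-2.

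With the replicate block, 0 members were higher and 0 lower, as the adjusted p (edgeR quasi-likelihood test) was 0.0586 for cpg-3 and 0.0928 for pgl-1, and 1496 genes were higher and 1074 lower overall. Deviations of same-numbered libraries from their group means correlated at -0.18, -0.16 and 0.25 across genes. Caffeine library 1 correlated best with control library 2, at 0.43. Such deviations sum to 0 within each group, so these correlations constrain each other and cannot decide whether the replicate numbers pair the libraries.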
